A study of Danio rerio with 6 samples.

Results

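Synaptic vesicle and exocytosis genes were taken here as the genes whose symbol begins with the name of a SNARE (stx, snap, vamp, sec22), a SNARE partner (stxbp, cplx, nsf, nap), a synaptotagmin (syt), a vesicle protein (sv2, syp, syn, snc), a component of the active zone or ribbon (rims, bsn, pclo, ctbp), a COPII coat subunit (sec23, sec24), an exocyst subunit (exoc) or a vacuolar protein sorting gene (vps). By this rule 107 of the 15502 tested probe sets were members, and they carried 84 of the 8793 gene symbols on the array. The rule itself uses symbols and no measured value. Some symbols matched by their letters only, such as the snapc genes, which encode a complex that serves the transcription of small nuclear RNA genes.

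The cells came from retinas of adult zebrafish that carried Tg(3.2TalphaCP:EGFP), a transgene in which a promoter fragment of cone transducin alpha drives EGFP in cones, and no treatment was given. Pooled retinas were dissociated and sorted by EGFP fluorescence into GFP-positive cells, the cones, and GFP-minus cells, and RNA of 3 GFP-positive and 3 GFP-minus samples was hybridised to 1 Affymetrix Zebrafish array each. Both populations carried the transgene, and the tissue field of the labels names cone cells for both, although the GFP-minus samples are by their population label the cells without EGFP. The labels call the samples biological replicates without saying which fish or which sort each came from, so p-values measure the spread between these samples, and their number limits the precision.

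A vesicle fuses when a SNARE on the vesicle, synaptobrevin (VAMP), zips together with syntaxin and SNAP-25 on the plasma membrane. Synaptotagmin senses the calcium, complexin clamps or assists the zipped complex, and NSF with its SNAP adaptors takes it apart again. Photoreceptors and bipolar cells release glutamate continuously at a ribbon, a plate built of RIBEYE, which is a product of the CtBP2 gene, and in mammals these synapses use syntaxin 3 and complexins 3 and 4 in place of the usual brain forms. Other branches of the same families serve transport from the endoplasmic reticulum (SEC22, COPII), tethering at the plasma membrane (exocyst), sorting in endosomes (ESCRT, retromer) and the release of granules from blood cells.

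The values are log2 expression values per probe set after GCRMA, which subtracts a background estimated from probe sequence, so dim probe sets gather near a shared lowest value of 2.17, and 10.3% to 11.7% of the tested probe sets of an array were at it. A difference below is the mean of the GFP-positive arrays minus the mean of the GFP-minus arrays on the log2 scale. It was tested with limma, and a probe set was called at a Benjamini-Hochberg adjusted p, over all 15502 probe sets, under 0.05. The 8 measured cone markers, among them the cone opsin genes and gnat2, were all higher in GFP-positive arrays, with a summed level of 15.9 to 16.2 on the log2 scale against 7.85 to 10.9. GFP-minus replicate 3 held the most cone transcript of its group (10.9 against 8.83 and 7.85). The 2 rod markers measured, gnat1 and gnb1b, moved the same way without overlap, with a summed level of 14.9 to 15.1 in GFP-positive arrays against 13.6, 13.8 and 14.5, again highest in GFP-minus replicate 3, and gnb1b was called (difference 1.23, limma adjusted p 0.0400). Leukocyte markers summed to 11.3 to 12.4 in GFP-positive arrays against 15.1 to 15.7 in the others, and erythrocyte markers to 12.6 to 13.1 against 15.5 to 15.9, so markers of blood cells moved with the comparison. In bulk samples such as these, fewer cells of a type and less RNA per cell cannot be told apart.

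As deposited and over all tested probe sets, these genes were called about as often as the rest of the array. Of the 107 probe sets, 3 were called higher and 5 lower in GFP-positive cells, which is 7.48%, against 7.68% of all tested probe sets (2.99% higher and 4.69% lower). By the unadjusted limma p, with the same threshold, 13 members were higher and 19 lower. That is 29.9% of the members, against 21.1% of all probe sets (10.7% higher and 10.4% lower). The median difference was −0.01 over the members and 0.01 over all probe sets. The arrays of the populations did not overlap for 15 members that were higher and 22 that were lower, 34.6% of the members against a background of 26.9%. Many members were bright, with a mean of at least 10 in 22 of 107 probe sets (20.6%) against 5.66% of all probe sets, although brightness also depends on the probes. Another 15 were under 3 on every array, near the background value (14.0%, against 29.8% of all probe sets). Among probe sets with a mean of at least 4.79, 2 of 77 members were called higher and 7 lower, and 1656 of all 7751 were called. After quantile normalization 1 of 107 members was called higher and 4 lower, and 1442 of all 15502 probe sets were called. In both settings a smaller share of the members than of all probe sets was called.

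The 8 called genes were vps37a, sec22bb and snap91b, which were higher in GFP-positive cells, and stx11a, sypl2b, vps4b, stx4 and vps29, which were lower. No call fell on a gene of the neuronal fusion machinery, on a synaptotagmin, on a complexin or on the ribbon. The sizes ran from 1.21-fold (vps29) to 41-fold (stx11a), and 5 of the 8 were at least 2-fold.

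**Figure D1:**
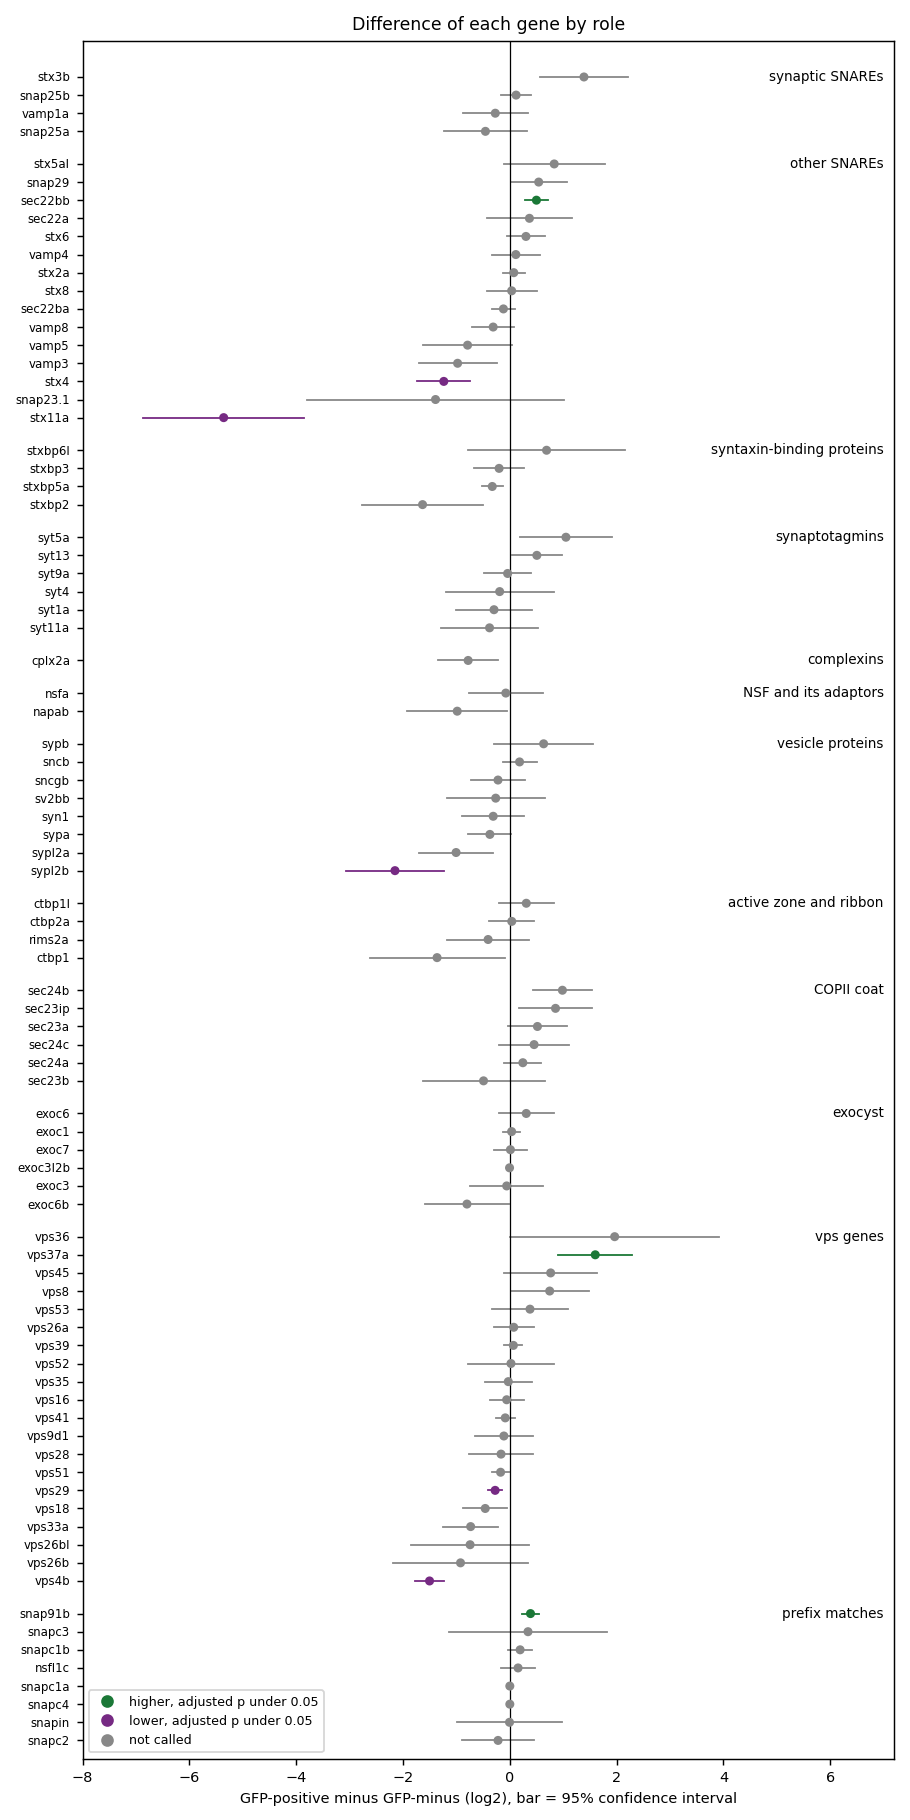
Difference of GFP-positive minus GFP-minus means (x axis, log2) for each of the 84 genes, grouped by role, with the probe set of highest mean for each gene. Points are the differences of 3 against 3 arrays and bars the 95% confidence intervals from limma; green and purple points are the 3 genes called higher and the 5 called lower, of which sec22bb and snap91b turned below 0 when arrays were scaled to the hybridization controls, and grey points were not called.

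Only vps4b was called in all 6 fits that left out 1 array, with adjusted p between 0.0131 and 0.0408 in limma. For stx11a the call was kept without GFP-minus replicate 1 or replicate 2 and was lost without each of the other 4 arrays (adjusted p 0.0558 to 0.0731, limma). A single array could be spared for vps37a (GFP-positive replicate 2), for sypl2b (GFP-minus replicate 1) and for sec22bb (GFP-minus replicate 2), and leaving out any other array ended those calls (limma adjusted p 0.0871 to 0.134, 0.0704 to 0.133 and 0.0818 to 0.143). The limma calls of stx4, snap91b and vps29 were lost without any 1 of the 6 arrays, at adjusted p of 0.0572 to 0.119 for stx4, 0.0650 to 0.133 for snap91b and 0.0739 to 0.151 for vps29. All 8 kept their direction in these fits.

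Apart from stx3b, the neuronal SNAREs were bright in both populations. snap25a, 1 of the 2 zebrafish genes for SNAP-25, was at 12.73, 12.09 and 12.12 in GFP-positive arrays and at 13.18, 12.75 and 12.39 in GFP-minus arrays. Its paralog snap25b was at 13.00, 13.24 and 13.04 against 13.06, 12.81 and 13.06. The arrays of both genes overlapped between populations, with differences of −0.46 (95% confidence interval −1.23 to 0.31) and 0.12 (−0.16 to 0.39). vamp1a, a synaptobrevin of the vesicle, was at 10.21, 10.49 and 9.92 in GFP-positive arrays against 10.23, 10.37 and 10.83 in GFP-minus arrays, a difference of −0.27 (−0.88 to 0.34) with overlapping arrays. None of the 3 genes passed the test.

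stx3b, a syntaxin 3 gene, had the largest difference of the neuronal SNAREs. It was dim, at 4.97, 5.74 and 5.00 in GFP-positive arrays and at 3.83, 4.23 and 3.48 in GFP-minus arrays. Every GFP-positive array was above every GFP-minus array. The difference of 1.39 (0.56 to 2.22), or 2.62-fold, missed the threshold with a limma adjusted p of 0.0822. It passed after quantile normalization (adjusted p 0.0391) and after median centring of the arrays (0.0252) in limma. Of all 15502 probe sets, quantile normalization called 1442 and median centring 7253, against 1190 as deposited. Syntaxin 1 and VAMP2 had no named probe set and were not analysed here.

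Among the synaptotagmins, whose vesicle members trigger release on calcium entry, 0 of 8 probe sets were called by limma (2 higher and 1 lower by unadjusted p), and 6 of the 8 had a mean of at least 10. syt5a was at 13.18, 13.34 and 13.50 in GFP-positive arrays and at 11.85, 12.08 and 12.94 in GFP-minus arrays. All GFP-positive arrays were above all GFP-minus arrays, of which replicate 3, the one with the most cone and rod marker transcript, was the highest; the part of either transcript in the value was not tested. The difference was 1.05 (0.19 to 1.91), or 2.07-fold, with a limma adjusted p of 0.163. Without GFP-minus replicate 3 it was 1.38 and was called (limma adjusted p 0.0368).

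syt1a, the calcium sensor of fast release, showed the opposite sign. Its brightest probe set read 12.87, 12.52 and 12.19 in GFP-positive arrays and 13.17, 12.86 and 12.44 in GFP-minus arrays, overlapping values with a difference of −0.30 (−1.02 to 0.42). A second probe set read 10.24, 9.98 and 9.68 against 11.44, 10.78 and 10.61. There every GFP-positive array was below every GFP-minus array, and the difference of −0.98 (−1.73 to −0.23) had a limma adjusted p of 0.142. Leaving out probe sets under the overall median level called it lower (limma adjusted p 0.0495), as did scaling to the hybridization controls (0.00121). The former setting called 1656 of its 7751 probe sets and the latter 3446 of 15502. The remaining family members differed by −0.38 (syt11a), −0.19 (syt4), −0.04 (syt9a) and 0.51 (syt13), none of them called.

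The only complexin measured was cplx2a, a form of conventional synapses in mammals. It was at 9.90, 9.61 and 9.38 in GFP-positive arrays and at 10.55, 10.60 and 10.08 in GFP-minus arrays. The populations did not overlap, and the difference of −0.78 (−1.34 to −0.22), 1.72-fold lower, had a limma adjusted p of 0.125. Complexins 3 and 4, the ribbon forms, had no named probe set and were not analysed here. Amacrine markers moved the same way, summing to 13.1 to 13.3 in GFP-positive arrays against 13.7 in each GFP-minus array and 3 of 10 called lower, and their part in the cplx2a value was not tested.

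The disassembly machinery gave no limma call (0 higher and 1 lower by unadjusted p). nsfa, the ATPase that separates SNAREs, was at 10.85, 10.95 and 11.52 against 10.86, 11.48 and 11.20, a difference of −0.08 (−0.77 to 0.62), while a second probe set gave 0.54 (−0.13 to 1.21). Its adaptor gene napab was at 6.40, 5.39 and 5.29 in GFP-positive arrays against 6.89, 6.70 and 6.45 in GFP-minus arrays. These arrays did not overlap, but the GFP-positive values were spread over 1 log2 unit, and the difference of −0.98 (−1.92 to −0.05) had a limma adjusted p of 0.218.

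**Figure D2:**
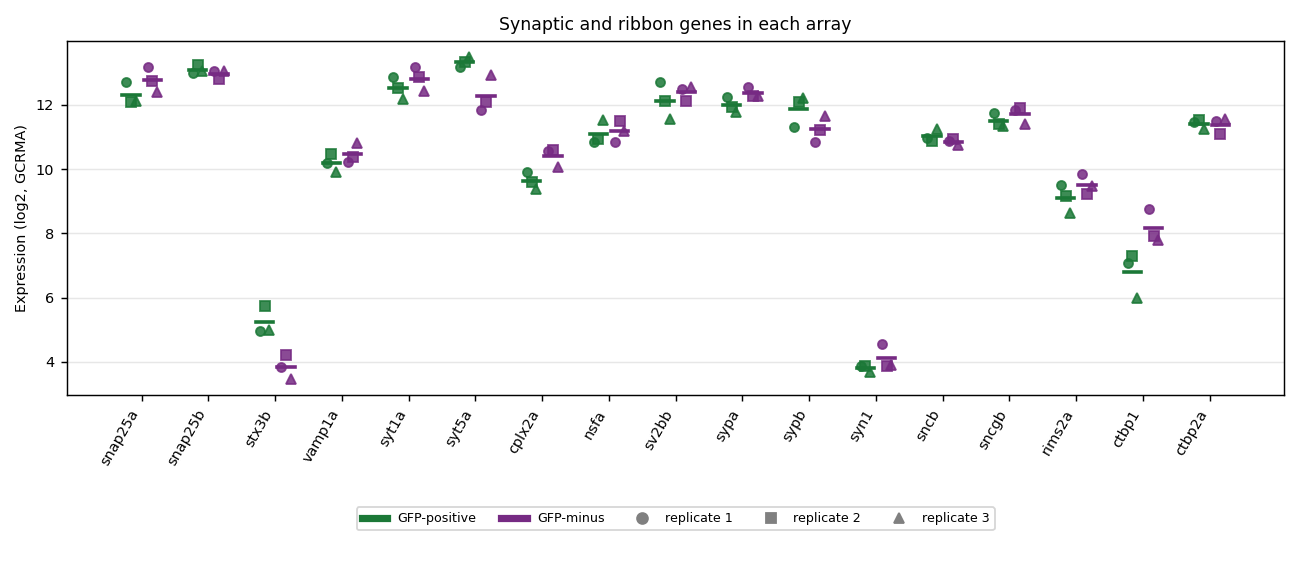
Log2 GCRMA expression (y axis) of 17 synaptic and ribbon genes in each of the 6 arrays, with GFP-positive arrays in green and GFP-minus arrays in purple, the marker shape giving the replicate and the short line the mean of 3. None of the 17 was called; stx3b and syt5a have all green points above the purple ones, while cplx2a, sypa and ctbp1 have all green points below.

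Of the 14 probe sets for vesicle proteins, 1 was called (7.14%, against 7.68% of all probe sets), and 6 had a mean of at least 10. sv2bb, a glycoprotein of the vesicle, was at 12.73, 12.12 and 11.55 against 12.50, 12.13 and 12.57, a difference of −0.26 (−1.18 to 0.65) that turned to 0.03 without GFP-positive replicate 3. The synuclein genes sncb and sncgb differed by 0.18 (−0.14 to 0.50) and −0.22 (−0.72 to 0.28) in their brightest probe sets. syn1, which encodes a synapsin that tethers reserve vesicles at conventional synapses, was dim in both populations (3.86, 3.86 and 3.67 against 4.56, 3.86 and 3.91), with a difference of −0.31 (−0.89 to 0.27).

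Synaptophysin, the most abundant vesicle membrane protein of many synapses, has 2 zebrafish genes. sypa was at 12.24, 11.95 and 11.79 in GFP-positive arrays against 12.55, 12.28 and 12.27 in GFP-minus arrays. The GFP-positive arrays all lay below the GFP-minus arrays (difference −0.37, −0.78 to 0.03, limma adjusted p 0.272). The brightest sypb probe set was at 11.31, 12.09 and 12.23 against 10.85, 11.21 and 11.67, which overlap. The 3 probe sets of sypb gave differences of 0.63, 0.75 and 1.37, none called, and the arrays did not overlap for the one with 0.75. GFP-minus replicate 3 was the highest of its group in the brightest probe set, as in the summed cone and rod markers, whose part in the value was not tested. In the probe set without overlap GFP-minus replicate 1 was the highest (10.693, against 10.688 in replicate 3).

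The synaptophysin-like genes sypl2a and sypl2b, whose mammalian counterpart is best known from muscle membranes, were on the other side. sypl2b was at 3.40, 3.43 and 4.20 in GFP-positive arrays and at 5.31, 6.07 and 6.11 in GFP-minus arrays. The populations were well apart, and the gene fell by 2.15 on the log2 scale (SE 0.35), 4.44-fold lower, with a limma adjusted p of 0.0374. sypl2a did not pass, with differences of −1.01 and −0.94 in its 2 probe sets (limma adjusted p 0.112 and 0.0737), both without overlap.

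At the ribbon and active zone, 0 of 5 probe sets were called by limma (0 higher and 1 lower by unadjusted p). ctbp2a, a gene whose locus encodes RIBEYE, was at 11.47, 11.52 and 11.26 in GFP-positive arrays and at 11.51, 11.08 and 11.55 in GFP-minus arrays. The arrays overlapped fully, with a difference of 0.04 (−0.39 to 0.46); the probe set is assigned to the gene, so RIBEYE and CtBP2 transcripts were not told apart. Its paralog ctbp1, a transcriptional corepressor gene, was at 7.08, 7.31 and 5.99 against 8.76, 7.93 and 7.79. All GFP-positive arrays were lower for ctbp1, and the difference of −1.36 (−2.63 to −0.10), 2.57-fold, had a limma adjusted p of 0.207. rims2a, an active zone scaffold gene, was at 9.51, 9.16 and 8.64 against 9.84, 9.23 and 9.46, with a difference of −0.41 (−1.18 to 0.36). Bassoon and piccolo, which anchor the ribbon, had no named probe set and were not analysed here.

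Paralogs were also compared within each array, where a shift of the whole array cancels. Of 15 pairs listed, 3 had both genes measured, and 3 against 3 arrays cannot give an exact p below 0.1. The difference of ctbp2a exceeded that of ctbp1 by 1.40 on the log2 scale, or 2.64-fold, without overlap of the arrays (two-sided exact permutation p 0.1, adjusted 0.2 over 3 pairs). For sypa and sypb the difference of the differences was −1.01, and for snap25a and snap25b it was −0.57 (exact permutation p 0.2 for each, adjusted 0.2). None of the 3 pairs could be called different.

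SNAREs known from blood cells and from general secretion held the largest difference among the members. stx11a is the gene for syntaxin 11, which human cytotoxic lymphocytes need to release their granules. It was at 3.03, 3.30 and 3.30 in GFP-positive arrays and at 7.39, 9.36 and 8.94 in GFP-minus arrays. GFP-positive arrays were close to background, and GFP-minus arrays were far above and more spread. stx11a fell by 5.36 on the log2 scale (95% confidence interval −6.87 to −3.85), 41-fold lower, with a limma adjusted p of 0.0145, and the size rests on the background step because the GFP-positive level is so low. A second stx11a probe set read 2.82, 3.02 and 2.79 against 3.86, 6.23 and 6.33, again without overlap (difference −2.60, limma adjusted p 0.145).

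stx4, a syntaxin of the plasma membrane in most cell types, was at 6.72, 6.20 and 6.51 in GFP-positive arrays and at 7.53, 7.96 and 7.65 in GFP-minus arrays. The populations were separated by more than the spread of either, and stx4 fell by 1.24 (SE 0.19), 2.36-fold lower, with a limma adjusted p of 0.0320. snap23.1, the partner of syntaxin 4 in mammalian non-neuronal cells, was at 4.94, 6.43 and 5.96 against 5.46, 8.08 and 7.96. GFP-minus replicate 1 fell among the GFP-positive arrays, and the difference of −1.39 (−3.79 to 1.01) was not called (limma adjusted p 0.484).

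vamp3, a synaptobrevin of recycling endosomes, was at 7.23, 7.25 and 7.50 in GFP-positive arrays against 7.76, 8.48 and 8.67 in GFP-minus arrays. The values did not overlap (difference −0.98, −1.71 to −0.25, limma adjusted p 0.133). vamp8, a SNARE of platelet and mast cell granules in mammals, overlapped at 5.11, 5.53 and 5.34 against 5.54, 5.53 and 5.84 (difference −0.31). stxbp2 encodes Munc18-2, the partner of syntaxin 11 in human lymphocytes. It was at 5.07, 6.19 and 5.94 in GFP-positive arrays and 6.78, 7.72 and 7.60 in GFP-minus arrays, without overlap. The difference of −1.63 (−2.76 to −0.50), 3.10-fold lower, had a limma adjusted p of 0.114. It was called when probe sets under the overall median level were left out (limma adjusted p 0.0221) and after median centring (0.0343). The former setting called 1656 of its 7751 probe sets and the latter 7253 of 15502. stxbp2 was also called with a replicate block (limma adjusted p 0.0328) and after scaling to the hybridization controls (0.00427). Those settings called 450 and 3446 of the 15502 probe sets. stxbp5a, the gene for tomosyn, which competes with synaptobrevin for syntaxin, was at 9.93, 9.97 and 9.86 against 10.39, 10.16 and 10.21, a separated but small difference of −0.33 (limma adjusted p 0.0783).

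Beside sec22bb, described with the early secretory genes, no further SNARE was called. stx5al, a Golgi syntaxin gene, differed by 0.83 and snap29 by 0.54 in their brightest probe sets, vamp5 by −0.79 and vamp4 by 0.11. Of these, snap29 was higher and vamp5 lower without overlap. A second snap29 probe set had the opposite sign (−0.19) and overlapped. stx2a and stx6 stayed under 3 on every array, and stx8 was at 3.93 to 4.46.

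A further member of that granule release pathway lies outside the symbol rule. unc13d, which encodes Munc13-4, the priming factor of lymphocyte granules in humans, was at 2.51 in all 3 GFP-positive arrays and at 6.72, 6.95 and 6.95 in GFP-minus arrays. The GFP-positive values were at background. unc13d fell by 4.36 on the log2 scale (SE 0.07), 20.6-fold lower, with a limma adjusted p of 0.00146, and the call held in each of the 11 alternatives in which it could be tested. Leukocyte markers moved with these genes. ptprc, the pan-leukocyte CD45 gene, was at 4.22, 3.68 and 3.68 in GFP-positive arrays against 8.90, 9.47 and 9.70 in GFP-minus arrays, and 8 of 10 leukocyte and 6 of 7 erythrocyte markers were called lower in GFP-positive cells. The part of blood cells in the values of stx11a, stx4, stxbp2 and unc13d was not tested.

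**Figure D3:**
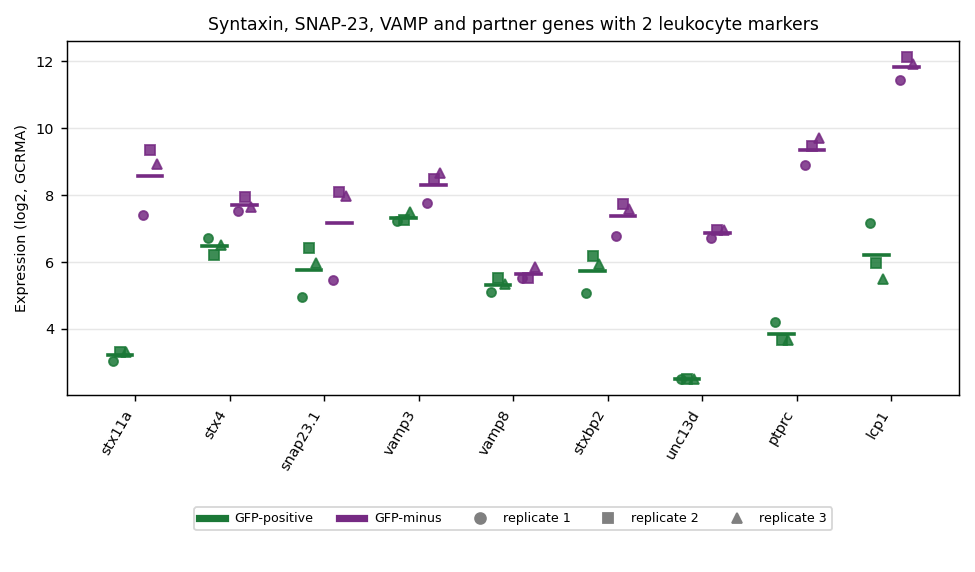
Log2 GCRMA expression (y axis) of 6 syntaxin, SNAP-23, VAMP and partner genes, of unc13d and of the leukocyte markers ptprc and lcp1 in each array, GFP-positive in green and GFP-minus in purple, with marker shapes for replicates and lines for means of 3. stx11a and unc13d sit near background in GFP-positive arrays and at 7.39 to 9.36 and 6.72 to 6.95 in GFP-minus arrays, without overlap like the 2 markers, while snap23.1 and vamp8 overlap.

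Other release genes outside the symbol rule were read from a list of 80 symbols, of which 21 were measured, with a median difference of 0.01. By limma 0 were called higher and 5 lower, 23.8% against 7.68% of all probe sets (5 higher and 5 lower by unadjusted p). The arrays did not overlap for 6 that were higher and 5 that were lower, 52.4% against 26.9% of all probe sets. Beside unc13d the called genes were syngr2a, scamp2, slc18a3a and slc32a1. syngr2a, a synaptogyrin of non-neuronal cells in mammals, was at 6.21, 5.78 and 5.50 against 9.20, 9.82 and 9.00 and fell by 3.51 (SE 0.30), 11.4-fold, with a limma adjusted p of 0.00993. scamp2, a membrane protein of secretory carriers, was at 5.98, 6.38 and 6.76 against 7.98, 9.35 and 8.96, a fall by 2.39 (limma adjusted p 0.0497). Both genes separated the populations fully. The paralog syngr2b went the other way, at 7.40, 7.38 and 7.58 in GFP-positive arrays against 6.85, 6.75 and 6.10 in GFP-minus arrays. Its arrays did not overlap, and the difference of 0.89 was not called (limma adjusted p 0.112). The call of syngr2a was lost without GFP-positive replicate 2 or replicate 3 (limma adjusted p 0.0511 to 0.0562), and that of scamp2 without any array but GFP-minus replicate 1 (0.125 to 0.161).

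The other 2 are vesicle transporters of neurotransmitters other than the glutamate of photoreceptors. slc18a3a, the acetylcholine transporter gene, was at 8.63, 8.33 and 8.61 in GFP-positive arrays against 9.98, 9.63 and 9.50 in GFP-minus arrays and fell by 1.18 (limma adjusted p 0.0267). slc32a1, the transporter gene for GABA and glycine, was at 10.02, 10.36 and 10.19 against 10.80, 11.22 and 11.07 and fell by 0.84 (limma adjusted p 0.0465). Without any 1 array other than GFP-minus replicate 1 both calls were lost (limma adjusted p 0.0543 to 0.10 for slc18a3a and 0.102 to 0.156 for slc32a1). Both are also on the amacrine marker list, and both remained well above background in GFP-positive arrays. On the opposite side, dnajc5ga, a gene of the cysteine string protein family, was at 10.33, 11.08 and 11.06 against 9.16, 9.33 and 9.67. Its arrays did not overlap, and the difference of 1.44 (SE 0.27), 2.72-fold, just missed the threshold (limma adjusted p 0.0533). The calcium channel subunit gene cacnb2b differed by 1.24, also without overlap (limma adjusted p 0.117).

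In the early secretory pathway, sec22bb, a SNARE of traffic between endoplasmic reticulum and Golgi, was at 9.63, 9.72 and 9.64 in GFP-positive arrays and at 9.24, 9.00 and 9.26 in GFP-minus arrays. The values were tight in both populations and apart from each other. sec22bb rose by 0.50 (SE 0.08), or 1.41-fold, with a limma adjusted p of 0.0413, although the sign turned to −0.24 when the arrays were scaled to the hybridization controls, a scaling that moved the median of all probe sets to −0.73. Its paralog sec22ba was near background on every array.

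The COPII coat, which buds vesicles from the endoplasmic reticulum, had 0 of 6 genes called by limma. By unadjusted limma p 2 were higher and 0 lower, 33.3% against 21.1% of all probe sets (10.7% higher). Differences were above 0 for 5 of the 6 genes, and for 8172 of all 15502 probe sets. The median of the 6 was 0.49 and became −0.25 under the same scaling. sec24b, a cargo-binding subunit, was at 9.20, 9.36 and 9.30 in GFP-positive arrays against 8.41, 7.89 and 8.61 in GFP-minus arrays. The populations did not overlap, and the difference of 0.98 (0.43 to 1.54), 1.98-fold, had a limma adjusted p of 0.0707. sec23ip, counted here by its symbol although named as a SEC23-interacting protein, and sec23a followed with 0.86 and 0.52 without overlap. The single negative value was that of sec23b (−0.49). Leaving out probe sets under the overall median level brought the call of sec24b (limma adjusted p 0.0269), and median centring called 5 of the 6 higher. Median centring also called 6151 of all 15502 probe sets higher.

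The 6 exocyst genes, whose products tether secretory vesicles to the plasma membrane, had no limma call (0 higher and 1 lower by unadjusted p) and a median difference of 0.00. exoc6b, a subunit that binds RAB proteins on vesicles, was at 4.26, 4.07 and 4.98 against 5.20, 5.00 and 5.52. Its arrays did not overlap, and the difference of −0.80 (−1.59 to −0.01) had a limma adjusted p of 0.231. exoc3 and exoc7 differed by −0.06 and 0.01.

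The vps genes, named from yeast mutants that missort vacuolar proteins, gave 3 of the 8 calls from 25 probe sets of 20 genes. That is 12% of these probe sets, against 7.68% of all probe sets. vps4b encodes the ATPase that takes ESCRT-III filaments apart after they have pinched a membrane. It was at 6.02, 6.24 and 6.02 in GFP-positive arrays and at 7.46, 7.60 and 7.74 in GFP-minus arrays. The spread within each population was small beside the distance between them, and vps4b fell by 1.50 (−1.78 to −1.23), 2.83-fold lower, with a limma adjusted p of 0.0061, the lowest among the members.

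vps37a, a subunit of ESCRT-I, which gathers ubiquitinated receptors at endosomes, moved the other way. It was at 10.65, 9.89 and 10.69 in GFP-positive arrays and at 8.97, 8.65 and 8.81 in GFP-minus arrays. All GFP-positive arrays were higher, with replicate 2 the lowest of them, and vps37a rose by 1.60 (SE 0.26), or 3.03-fold, with a limma adjusted p of 0.0377. The ESCRT-I partner vps28 overlapped (8.94, 8.92 and 9.59 against 9.15, 9.30 and 9.50, difference −0.16). The ESCRT-II gene vps36 was at 7.33, 9.26 and 9.28 against 5.94, 6.58 and 7.47, where GFP-positive replicate 1 was below the highest GFP-minus array. Its difference of 1.96 (0.00 to 3.92) was not called (limma adjusted p 0.236). The ESCRT genes therefore held the highest and the lowest differences of the vps group.

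Retromer, which returns receptors from endosomes, had a median difference of −0.27 over 5 genes. vps29, a core subunit, was at 8.96, 8.82 and 8.92 in GFP-positive arrays against 9.19, 9.22 and 9.12 in GFP-minus arrays, tight and without overlap. It fell by 0.27 (SE 0.05), 1.21-fold lower, with a limma adjusted p of 0.0470, and median centring brought the value to −0.05. The core subunit vps35 overlapped between populations (10.24, 10.55 and 10.09 against 10.21, 10.22 and 10.55, difference −0.03), and vps26a differed by 0.07, vps26b by −0.92 and vps26bl by −0.74, none of them called. Of the HOPS and CORVET tethers, vps33a (−0.73), vps18 (−0.46) and vps8 (0.75) did not overlap between populations and were not called. The remaining vps probe sets, for HOPS (vps16, vps39, vps41), for the Golgi tethers GARP and EARP (vps51, vps52, vps53), for vps45 and for vps9d1, had differences from −0.36 to 0.87 and no call, and vps39 stayed near background. Of these, 1 vps45 probe set (0.76) and vps53 (0.38) were higher and vps51 (−0.17) lower without overlap. Over all 25 vps probe sets, 4 were higher and 5 lower without overlap, 36% against 26.9% of all probe sets.

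Endosomal sorting genes outside the symbol rule came from a list of 55 symbols with 35 measured and a median difference of −0.17. By limma 0 were called higher and 3 lower, 8.57% against 7.68% of all probe sets. By unadjusted limma p 1 was higher and 8 were lower, 25.7% against 21.1% of all probe sets. The arrays did not overlap for 2 that were higher and 9 that were lower, 31.4% against 26.9% of all probe sets. chmp1b, an ESCRT-III subunit, was at 8.97, 9.14 and 8.95 against 9.97, 9.95 and 9.95 and fell by 0.94 (SE 0.06, limma adjusted p 0.00485). The call was kept in each of the 12 alternative fits, although its size of 1.92-fold was under the 2-fold minimum. pdcd6ip, the gene for the ESCRT adaptor ALIX, fell by 0.56 and the sorting nexin gene snx1a by 1.39 (limma adjusted p 0.0237 and 0.0326). The call of pdcd6ip was kept only without GFP-minus replicate 2 and that of snx1a only without GFP-positive replicate 1, and leaving out each other array ended them (limma adjusted p 0.0513 to 0.104 and 0.0592 to 0.125). All 3 separated the populations. Further ESCRT-III genes, chmp2a, chmp4bb and chmp5b, had differences of −1.45, −1.25 and −1.23 without overlap and were not called (limma adjusted p 0.136, 0.124 and 0.0928). chmp2bb and chmp1a differed by −0.77 and −0.56, also without overlap and not called. The other chmp genes measured, chmp3 (0.04), chmp4ba (−0.02) and chmp4c (−0.30), overlapped between populations. Of the other sorting nexin genes, snx12 (1.11) and snx27b (0.32) were higher and snx5 (−1.31) lower without overlap, none called. snx2, snx3, snx4 and snx6 overlapped. The blood cell markers named above also separated these arrays, and their part in the ESCRT values was not tested.

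**Figure D4:**
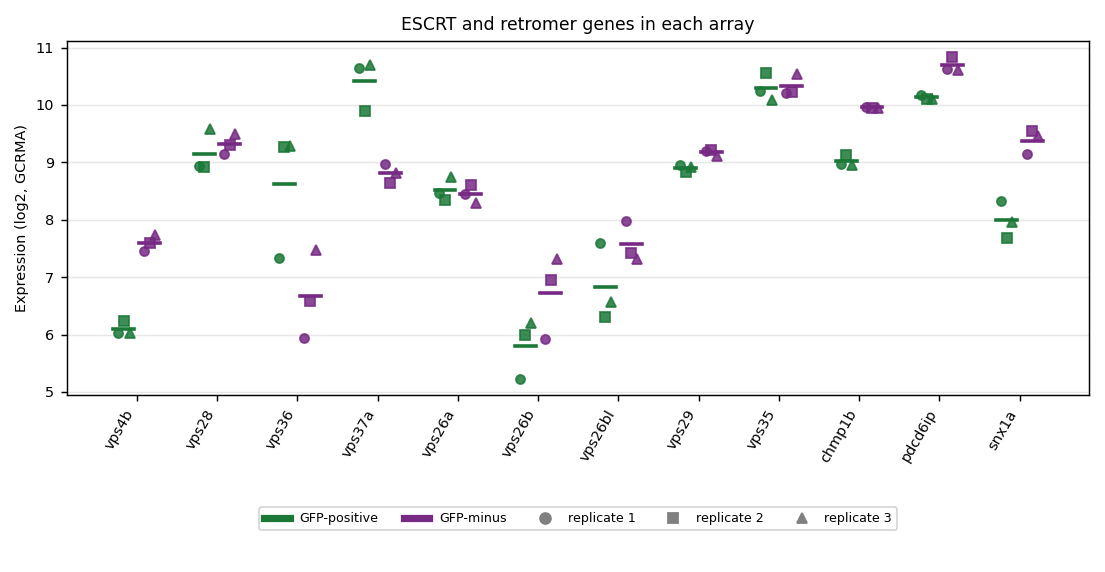
Log2 GCRMA expression (y axis) of the ESCRT and retromer members and of chmp1b, pdcd6ip and snx1a in each array, GFP-positive in green and GFP-minus in purple, with marker shapes for replicates and lines for means of 3. vps4b, vps29, chmp1b, pdcd6ip and snx1a have all green points below the purple ones, vps37a has all of them above, and vps28, vps35 and vps26a overlap.

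Among the members matched by prefix but outside the families above, snap91b was called. It encodes AP180, which assembles clathrin on synaptic vesicle membrane, and is unrelated to the SNAP proteins. The gene was at 10.23, 10.33 and 10.14 in GFP-positive arrays and at 9.82, 9.81 and 9.91 in GFP-minus arrays. Without overlap, snap91b rose by 0.39 (SE 0.06), or 1.31-fold, with a limma adjusted p of 0.0376, and turned to −0.35 under scaling to the hybridization controls; a second probe set was at background. The snapc, nsfl1c and snapin probe sets, 9 in all, were not called, the largest difference being 0.34 for snapc3.

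Vesicle membrane is taken back by clathrin and dynamin. Genes of this step were read from a list of 46 symbols, which also held relatives by symbol such as dnm1l, sh3glb1a, sh3glb1b and synj2bp. A part of these relatives in vesicle retrieval was not tested. Outside the symbol rule 24 of the 46 listed genes were measured, while snap91b, also on the list and called higher, was counted with the members. By limma 0 of the 24 were called, and the median difference was 0.17. By unadjusted limma p 5 were higher and 4 lower, 37.5% against 21.1% of all probe sets. The arrays did not overlap for 5 that were higher and 5 that were lower, 41.7% against 26.9% of all probe sets. ap2m1a, a clathrin adaptor subunit, was at 12.36, 12.72 and 12.75 in GFP-positive arrays against 12.12, 12.02 and 12.12 in GFP-minus arrays. The arrays did not overlap for it (difference 0.52, limma adjusted p 0.0886), nor for picalmb, a relative of AP180 (0.72, 0.0859). pacsin3 (1.00), dnm1l (0.59) and bin1b (0.45) were also higher without overlap. Lower without overlap were dnm2b (−0.98), sh3glb1a (−0.81), ap2b1 (−0.61), sh3glb1b (−0.57) and sh3gl1a (−0.04). bin1b and sh3gl1a were near background on every array. The clathrin heavy chain genes cltca and cltcb overlapped (−0.46 and 0.13).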

How the data were processed

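Log2 values for each probe set were deposited by the authors, and the submitters' processing notes credit them to GCRMA, of which no version or setting is named in the sources read. The values were used as deposited and grouped by the sample labels. Of 15617 probe sets, 115 controls were left out. Gene names came from the platform annotation: 10795 tested probe sets had 1 symbol, 135 several (not named) and 4572 none, and all 107 members matched a current gene by Entrez ID, with 0 symbols changed. Probe sets were tested two-sided with limma 3.58.1 (lmFit and eBayes, prior of 0.519 degrees of freedom) in R 4.3.3, with Benjamini-Hochberg adjustment, after a test on simulated data, and figures were drawn with matplotlib 3.10.9. Arrays have no read depth, and 3 per population limit the precision. Lists hold the probe set of highest mean for each gene.

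Named genes are listed synaptic and ribbon paralogs, every called member and the uncalled member of largest difference in each role group; stx3b, vamp1a, cplx2a, vamp3 and vamp8 were added after their values were seen, as were the further members given with values. Genes of the pathway lists are named where called, and some uncalled ones are named by size or as relatives of a named gene. Other relatives were measured and are not named, and some of these did not overlap between populations. Members, lists and tests were chosen with earlier results of these data known. Alternatives were a replicate block, a filter on dim probe sets (mean at least 4.79, 7751 kept), quantile normalization, median centring, scaling to 18 hybridization control probe sets, a trended robust prior, an adjusted p under 0.01, a 2-fold minimum and leaving out each array. Because the files name no genome build, positions and sequences are left out.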

Additional observations from a re-analysis of the deposited data

How the results depend on the processing

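Of 536 values of 45 named results under these alternatives, 387 kept their direction and side of the threshold, 103 lost a call, 31 gained one and 15 changed sign. Higher and lower members numbered 3 and 5 as deposited, 0 to 1 and 1 to 5 when 1 array was left out, 0 and 1 at an adjusted p under 0.01, and 1 was higher at 2-fold or after quantile normalization. The split of calls follows the scaling. Median centring moved the median of all probe sets from 0.01 to 0.24 and that of the members from −0.01 to 0.22. It called 33 of the 107 members higher (82.5% of its member calls, against 3 of 8 as deposited) and 7 lower. Of all 15502 probe sets it called 6151 higher and 1102 lower. Among the members it called higher were snapc1a and snapc4, whose deposited values were the same on all 6 arrays. Hybridization-control scaling moved the medians of all probe sets and of the members to −0.73 and −0.74. It called 0 members higher and 38 lower, and 195 higher and 3251 lower of all 15502 probe sets. The controls themselves averaged 9.89 to 10.4 in GFP-positive and 9.03 to 9.56 in GFP-minus arrays. The cause of these shifts was not tested.

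Under hybridization-control scaling the sign turned for ctbp2a (−0.70), snap25b (−0.62), sypb (−0.10), sncb (−0.55), snap91b (−0.35), sec22bb (−0.24) and snapc3 (−0.40). Median centring turned nsfa (0.15) and sncgb (0.0037). Leaving out 1 array turned ctbp2a (range −0.11 to 0.12, below 0 at −0.02 without GFP-positive replicate 2 and −0.11 without GFP-minus replicate 2), sv2bb (−0.56 to 0.026, above 0 without GFP-positive replicate 3) and nsfa (−0.28 to 0.078, above 0 at 0.05, 0.0024 and 0.078 without GFP-positive replicate 1, GFP-positive replicate 2 and GFP-minus replicate 2). The 3 paralog comparisons kept their direction without any 1 array and after quantile normalization, and the exact test cannot reach the threshold.

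Populations share replicate numbers, but the labels state no pairing, so the numbers were not taken as pairs in the main test. Deviations of same-numbered arrays correlated at 0.555, 0.0589 and 0.266, against −0.443 to 0.357 for differently numbered arrays. For the replicate 1 arrays, correlations with differently numbered arrays of the other population were −0.443 to −0.245. An effect shared by the replicate 1 arrays was not tested. With the number as a replicate block, 1 member was higher and 2 lower, and 450 probe sets were called in all against 1190. Of the 8 called members 1, vps4b, was kept (limma adjusted p 0.0499). The block gained syt13, higher (limma adjusted p 0.0437), and stxbp2, lower (0.0328). Of the called genes outside the symbol rule, the block kept unc13d, slc32a1 and chmp1b and ended the calls of syngr2a, scamp2, slc18a3a, arf5, trappc13, pdcd6ip and snx1a (limma adjusted p 0.0583 to 0.137). Dim genes such as stx11a and unc13d are limited by signal near background in GFP-positive arrays, where the background step sets the size of the difference.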

Other observations

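Coats and tethers of the early secretory pathway outside the symbol rule came from a list of 56 symbols, of which 33 were measured. By limma 1 was called higher and 1 lower in GFP-positive cells (6.06%, against 7.68% of all probe sets), with a median difference of −0.02. trappc13, a subunit of the TRAPP tether, was at 8.19, 8.23 and 7.74 in GFP-positive arrays and at 7.28, 6.96 and 6.96 in GFP-minus arrays. The populations did not overlap, and trappc13 rose by 0.99 (SE 0.18), or 1.98-fold (limma adjusted p 0.0496). arf5, a GTPase of the Golgi, was at 9.59, 9.95 and 9.95 against 10.46, 10.49 and 10.63 and fell by 0.69 (SE 0.12), 1.62-fold (limma adjusted p 0.0457). The COPI subunit gene copz2 differed by 1.28 without overlap and was not called (limma adjusted p 0.131). Leaving out any 1 array ended the call of trappc13 (limma adjusted p 0.0601 to 0.166), and arf5 kept its call only without GFP-positive replicate 1.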
